A study of Mus musculus with 8 samples.

Results

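Chromatin immunoprecipitation (ChIP) of mouse hepatocytes without Lcmr1 gave a list of 1303 separate regions on the nuclear chromosomes, and those regions are the subject here. They were selected on their ChIP enrichment, as the authors' peak list of the knockout library, with rows of the same chromosome, start and end counted as 1 region. They make up 1303 of the 18298 nuclear regions in both deposited lists, and the control list holds the other 16995. A knockout-list region that overlapped a control-list region by at least 1 base was called present in both lists, which held for 1122 regions (86.1%, exact Clopper-Pearson 95% interval 84.1 to 87.9). The other 181 regions (13.9%) overlapped no control-list region and are called knockout only. Enrichment and overlap chose and split the regions, so both are described without a test. Each genotype had 1 ChIP library, so no value of a region has a replicate check, and the intervals cover counting error only. The intervals also treat regions as independent, although 133 control regions held 2 or more knockout-list regions each. They may therefore be too narrow.

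All cells were primary hepatocytes, isolated from the liver by a digestion in 2 steps, cultured for 24 h and given 100 nM glucagon, the fasting hormone, for 12 h. The control genotype was Lcmr1f/f, a floxed gene without Cre. The knockout genotype was Lcmr1f/f * albumin-cre, in which the albumin promoter drives Cre recombinase in hepatocytes, so other liver cells that came along would keep the gene. RNA-seq covered 3 libraries of each genotype, all with the hormone, so its own effect was not measured. The titles of the ChIP samples name "RNA poll III" as the target, whereas the series' design text speaks of ChIP-seq for Lcmr1, and the labels do not settle which protein was precipitated. The sources used here do not state the number of reads in each ChIP library or the use of an input, so the shorter knockout list cannot be told apart from a difference in depth or in the efficiency of the precipitation.

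Lcmr1, now called Med19, is part of Mediator, the large complex that relays signals from transcription factors on DNA to RNA polymerase II at gene starts. RNA polymerase II makes messenger RNAs and many noncoding RNAs, and it is found at the starts, along the bodies and past the ends of active genes. RNA polymerase III makes transfer RNAs, 5S ribosomal RNA and other short RNAs from small genes of their own.

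The transfer RNA genes that RNA polymerase III transcribes held no knockout-list region. Of 408 nuclear transfer RNA genes in the RefSeq annotation, 0 lay within 100 bases of a knockout-list region, and 6 lay within that distance of a control-list region. Of 15 polymerase III transcripts in a fixed list, 3 were in the RNA table, 0 of them held a knockout-list region and 2 held a control-list region. The other 12 of the fixed list were not checked. Small RNA genes of other classes were counted in the RNA table, by a region's summit within 1 kb of the start. They were 2 small nuclear RNA, 4 small nucleolar RNA, 3 microRNA, 1 sRNA and 1 miscellaneous RNA gene. Within 100 bases of a knockout-list region, the RefSeq annotation had 2 small nuclear RNA, 7 small nucleolar RNA and 6 microRNA genes. Which polymerase makes each was not examined. Of the 267 genes with a knockout-list region at the start, 213 were protein-coding. The regions are therefore described by their place and genes, and not by the polymerase in the titles. The labelled cell type had its markers in the list, since all 6 hepatocyte markers (Alb, Apoa1, Ttr, Hnf4a, Cyp2e1 and Tat) held knockout-list regions, against 0 of 24 markers of macrophages, endothelial cells, stellate cells, bile duct cells and lymphocytes.

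The sequences under the knockout-list regions at gene starts are shown first, so that the DNA under the strongest start regions can be read beside the values. For each class these are the 4 protein-coding starts of highest fold whose RefSeq promoter (GRCm38.p6, the same assembly as mm10) had at least 70 of the 150 bases before the start inside the region. Fold is the authors' enrichment of a region over background in its own list. Capitals mark 4 motifs, on either strand, and so also their reverse complements, and no motif contains another. The first is CCAAT, the box bound by the factor NF-Y. The others are TATAAA for the TATA box, the box of the factor SP1, searched as GGGCGG, and the site of the ETS family of factors, searched as CCGGAAG. The first 4 sequences lie under regions in both lists and the next 4 under knockout-only regions.
Hist1h4c, chr13:23698459-23698608, minus strand: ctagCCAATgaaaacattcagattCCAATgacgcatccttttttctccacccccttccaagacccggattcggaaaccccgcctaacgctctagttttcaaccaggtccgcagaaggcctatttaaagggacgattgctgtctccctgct
H2-Q10, chr17:35469939-35470088, plus strand: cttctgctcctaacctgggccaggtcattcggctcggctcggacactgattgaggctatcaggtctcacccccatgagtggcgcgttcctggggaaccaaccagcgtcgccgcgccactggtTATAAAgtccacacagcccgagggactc
Hist1h1e, chr13:23622559-23622708, minus strand: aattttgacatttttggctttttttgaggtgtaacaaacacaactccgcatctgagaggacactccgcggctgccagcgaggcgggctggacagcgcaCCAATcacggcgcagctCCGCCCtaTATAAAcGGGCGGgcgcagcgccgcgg
Dapk3, chr10:81182857-81183006, plus strand: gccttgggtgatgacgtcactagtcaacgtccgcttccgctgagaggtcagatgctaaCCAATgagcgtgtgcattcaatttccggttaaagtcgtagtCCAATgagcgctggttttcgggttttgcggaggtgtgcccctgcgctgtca
Hist2h3c2, chr3:96239128-96239277, minus strand: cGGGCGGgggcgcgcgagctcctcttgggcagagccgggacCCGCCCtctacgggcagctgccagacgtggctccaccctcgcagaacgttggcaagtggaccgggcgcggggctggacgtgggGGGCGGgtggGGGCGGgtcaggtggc
Fdx1l, chr9:21073532-21073681, minus strand: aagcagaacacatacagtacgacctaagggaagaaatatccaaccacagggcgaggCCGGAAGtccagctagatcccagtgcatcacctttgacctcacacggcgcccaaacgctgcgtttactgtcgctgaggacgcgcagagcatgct
Hist1h3g, chr13:23535268-23535417, plus strand: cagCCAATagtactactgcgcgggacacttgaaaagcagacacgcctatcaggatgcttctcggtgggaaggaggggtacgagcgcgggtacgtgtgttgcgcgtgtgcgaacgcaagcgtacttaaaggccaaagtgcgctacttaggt
Flad1, chr3:89411882-89412031, minus strand: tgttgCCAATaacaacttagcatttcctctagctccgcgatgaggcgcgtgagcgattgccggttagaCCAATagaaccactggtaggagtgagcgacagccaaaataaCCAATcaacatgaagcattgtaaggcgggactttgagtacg

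Histone genes supplied 4 of these 8 starts. The printed stretch held 2 CCAAT boxes in Hist1h4c and in Dapk3, 3 in Flad1, and 1 each in Hist1h1e and Hist1h3g. H2-Q10, a class I histocompatibility gene of the liver, held a single TATAAA, and Hist1h1e held a TATAAA between 2 SP1 boxes. Hist2h3c2 held 4 SP1 boxes and no CCAAT.

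Over whole RefSeq promoters of 300 bases (250 before and 50 after the start), CCAAT on either strand was present in 57.1% of the 245 promoters under start regions in both lists. The share was 42.6% of the 4375 promoters under control-list regions alone and 37.4% of all 32851 promoters. TATAAA was in 12.2%, 5.67% and 13.6% of the same groups. GGGCGG was in 72.2%, 78.2% and 35.7%, and CCGGAAG in 16.7%, 19.9% and 8.86%. The cyclic AMP response element TGACGTCA, the site bound by the factor CREB that glucagon signalling activates, was in 3.67% of promoters under regions in both lists, 4.66% of those under control-list regions alone and 1.79% of all. The box B of polymerase III genes, searched as GGTTCGA, was in 1.63%, 1.55% and 0.910%. Median GC content was 64.7% under regions in both lists, 65.0% under control-list regions alone and 52.7% over all promoters. Only 14 promoters lay under knockout-only start regions, of which 9 held CCAAT, 11 GGGCGG, 6 CCGGAAG and 0 TATAAA. A match is a run of letters and not a shown binding site.

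The knockout list was short in bases as well as in number. Its regions covered 666.4 kb, against 10415 kb covered by the control list. Widths in the knockout list ran from 205 to 16804 bases with a median of 327, and folds from 1.75 to 46.2 with a median of 5.58. Regions in both lists had a median width of 340 bases and a median fold of 5.81, and 18 of them were 3 kb or longer. Knockout-only regions covered 53.2 kb, had a median width of 250 bases and a median fold of 4.98, and reached at most 888 bases and a fold of 8.22. The lowest -log10 q-value in the list was 1.30.

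Control-list regions that were also in the knockout list were few, and their share rose with the control region's own fold, as the plot of control regions by fold shows. Of 16995 control-list regions, 761 (4.48%) overlapped at least 1 knockout-list region. The share was 1.33% of the 8633 control regions with a fold under 5, 4.61% of 7328 from 5 to under 10, 24.9% of 942 from 10 to under 20, and 79.3% of the 92 with a fold of 20 and over. Control regions in both lists were also wider, with a median of 857 bases against 373 for the control list alone. A wider region meets an overlap of 1 base more easily, and the part of width in this rise was not tested. A total of 133 control regions held 2 or more knockout-list regions, which together came to 509, and 1 control region held 26. Those control regions were represented in the knockout list by several separate pieces.

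**Figure D1:**
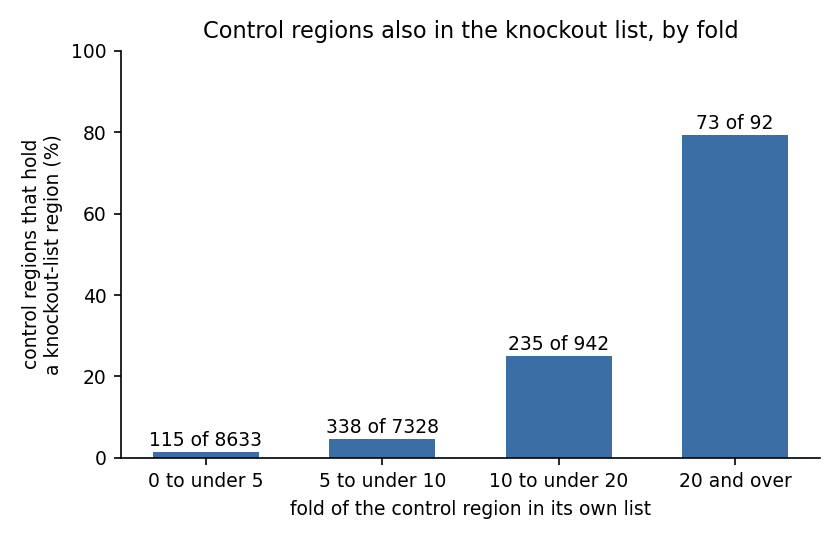
Share of control-list regions that overlap a knockout-list region (vertical axis, %), by the control region's own fold in its list (horizontal axis). The share is 1.33% under a fold of 5 and 79.3% at a fold of 20 and over; the numbers of regions stand above the bars.

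Near the line between the classes, the 3 smallest overlaps with a control region were 4 bases in Cps1, 11 bases in Ip6k2 and 12 bases in Apeh. The 3 smallest gaps were 2 bases in Fmo5, 5 bases in Gm15690 and 13 bases in Kyat3. Among knockout-only regions the gap to the nearest control region had a median of 1473 bases. It was at most 500 bases in 54, at most 1000 bases in 78 and above 10 kb in 45 of the 181.

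Most knockout-list regions lay inside genes. Each region was placed by its highest summit, as within 1 kb of a gene start, otherwise within 1 kb of a gene end, otherwise inside a gene, otherwise outside genes. The starts and ends are those of the whole annotated gene in the authors' table, and starts of shorter transcripts inside a gene were not used. Starts took 283 regions (21.7%), ends 206 (15.8%), gene bodies 731 (56.1%) and places outside genes 83 (6.37%). Knockout-only regions were at starts in 29 of 181 (16.0%, interval 11.0 to 22.2) and at ends in 37 (20.4%, 14.8 to 27.1). Regions in both lists were at starts in 254 of 1122 (22.6%, 20.2 to 25.2) and at ends in 169 (15.1%, 13.0 to 17.3). Regions of the control list alone were at starts in 26.4% and at ends in 9.12% of 16234. The summit of start regions lay at a median of 43 bases downstream of the start over the knockout list, 40 for regions in both lists, 117 for the 29 knockout-only ones and 61 for the control list alone.

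**Figure D2:**
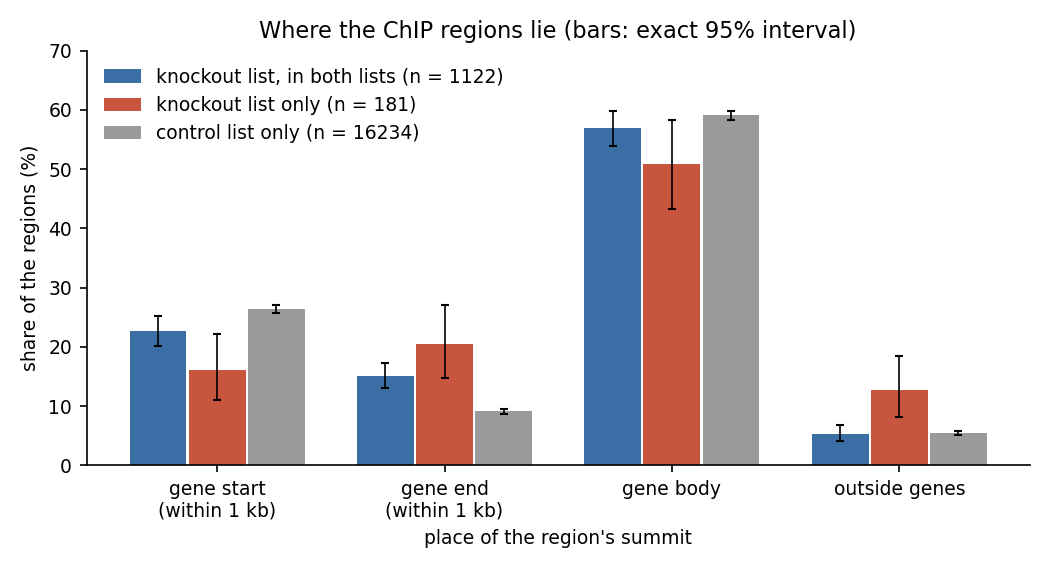
Share of regions (vertical axis, %) by the place of the summit (horizontal axis), for knockout-list regions in both lists, knockout-only regions and control-list-only regions, with exact 95% intervals that cover counting error only. Gene ends take 15.1% of regions in both lists, 20.4% of knockout-only regions and 9.12% of control-only regions.

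The region of highest fold in the knockout list, 46.2, was chr17:4626126-4626691, outside genes and with its summit at -367981 bases from the start of Arid1b, its nearest gene. The next were long regions over 3 genes expressed in the liver. A region of 7512 bases with a fold of 30.6 lay over Tat (chr8:109993569-110001080), the tyrosine aminotransferase. A region of 16804 bases with a fold of 25.2 lay over Errfi1 (chr4:150856959-150873762), a feedback inhibitor of the epidermal growth factor receptor. A region of 7731 bases with a fold of 24.4 lay over Pck1 (chr2:173153294-173161024), the cytosolic PEP carboxykinase of gluconeogenesis. At gene starts the highest folds were those of Actb (18.6), the antisense RNA gene Gm44686 (17.8), the antisense RNA gene 1700045H11Rik beside Errfi1 (17.0) and Hist1h4c (14.7). All of these regions were in both lists.

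The knockout-only region of highest fold, 8.22, lay in Mocos, the sulfurase that completes the molybdenum cofactor, 22902 bases from the nearest control region. At starts the highest fold of this class was 7.68, at Rce1 (chr19:4625404-4625613), a protease that trims prenylated proteins. It was followed by 7.04 at Gm10941 (chr10:77259155-77259427) and at Gm26461, and by 6.71 at Hist2h3c2 (chr3:96238999-96239214).

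Along single genes the regions differed in how much of the gene they kept, as the maps of 8 genes show. Knockout-list regions covered 98.2% of the Tat gene, 96.1% of Pck1, 91.4% of Errfi1 and 88.1% of Alb, which encodes albumin, against 98.3% to 100% in the control list. G6pc (chr11:101367561-101377903, plus strand), the catalytic subunit of glucose-6-phosphatase that the series title is about, was covered over 100% by a single control region. In the knockout list it held 5 separate regions within its span and 1 just past its end, which covered 46.8% of the span. Their summits lay from 2912 to 10806 bases downstream of the start, with folds from 4.86 to 9.07, and none was at the start. Fbp1, another gluconeogenic enzyme, was covered over 80.0% by control regions and held 1 knockout-list region of 205 bases. Pcx, Slc37a4, Ppargc1a and Med19 held no knockout-list region.

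The 12 genes with 10 or more knockout-list regions held 216 of them. Cps1, the first enzyme of the urea cycle, held 40, which covered 21.0% of the gene against 88.2% in the control list. Ass1, also of the urea cycle, held 26 and Apob, the backbone of liver lipoproteins, held 24. The others included the nuclear RNA Neat1 (14), Tdo2 (14), Slc7a2 (12), Slc38a3 (11), Alas1 (11) and Slc38a4 (10).

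In a smaller set of genes the knockout list covered more bases than the control list. This was so for 51 of the 612 genes with a knockout-list region at the start, at the end or in the body, and the control list covered more in 537. Fads3, a member of the fatty acid desaturase family, was covered over 26.6% by 7 knockout-list regions and over 9.03% by 5 control regions. Malat1, an abundant nuclear noncoding RNA, was covered over 86.0% against 41.7%. Bhmt, the betaine-homocysteine methyltransferase, was covered over 13.6% against 4.84%. In Ddit4, an inhibitor of the growth kinase mTORC1, the control list had 1 region at the start, with its summit 37 bases downstream and a fold of 18.7 in its own list. The knockout list had no region there and held 2 knockout-only regions near the end of the gene, with summits 1367 and 2257 bases downstream and folds of 6.67 and 4.98. Notch3, a cell surface receptor, held 2 knockout-only regions in its body and no control region.

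**Figure D3:**
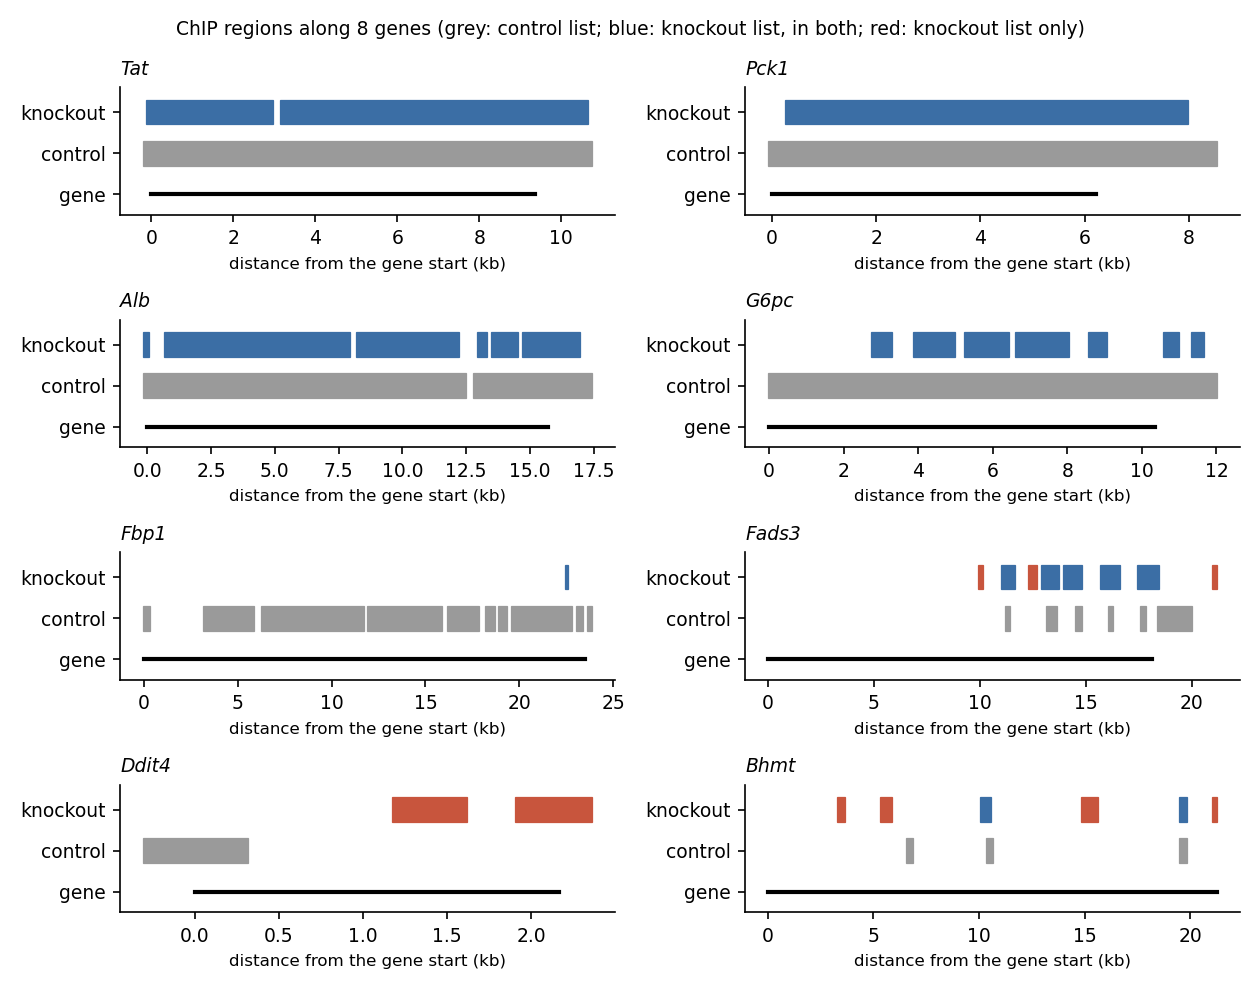
Positions of ChIP regions along Tat, Pck1, Alb, G6pc, Fbp1, Fads3, Ddit4 and Bhmt (horizontal axis: distance from the gene start in kb, in the direction of transcription; rows: the gene, control-list regions in grey, knockout-list regions in blue where in both lists and in red where knockout only). G6pc is covered by 1 control region and by separate knockout-list pieces away from its start, and Ddit4 has a control region at its start and 2 knockout-only regions near its end.

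RNA was measured in other libraries and did not choose the regions, so the RNA of the genes that hold them was tested. Counts per gene were compared with edgeR's quasi-likelihood test over all 15135 genes that passed a filter on low counts, and a gene was called at a Benjamini-Hochberg adjusted p under 0.05. Library totals ran from 22191786 to 26595249 counts. The labels do not tie the numbered libraries to different animals, and p-values therefore measure the spread between these samples alone, which may be technical. Control replicate 1 stood apart from the other control libraries: a chi-square of its counts against theirs, per degree of freedom, was 143.2 and 149.7, and 7.41 between control replicates 2 and 3. Levels are given as CPM, counts scaled to a library size that TMM adjusts so that most genes are level between libraries. With library totals alone, log2 fold changes were higher by a median of 0.59, so calls are given with both scalings where the split turns or a call is lost. The deleted gene, Med19, had 7.50, 10.8 and 13.4 CPM in control and 2.91, 5.27 and 3.02 in knockout libraries. All knockout libraries lay below all controls, with a log2 fold change of -1.50 (SE 0.31, edgeR adjusted p = 0.012, and 0.051 without knockout replicate 1).

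Markers of macrophages moved with the genotype. All 6 were called higher in the knockout, their summed level was 216.8 to 279.6 CPM in control and 536.4 to 649.2 in knockout libraries, and none was at 0. On the TMM scale 1 each of the 5 endothelial and 5 stellate markers was also called higher, and none of the bile duct or lymphocyte markers passed. Of all genes tested, 12.6% were called higher on the TMM scale. Median log2 fold changes were 0.93 for macrophage, 0.56 for endothelial, 0.69 for stellate, 0.92 for lymphocyte and -0.27 for bile duct markers. With library totals alone all 6 macrophage, all 5 endothelial and all 4 lymphocyte markers were called higher. That scale also gave higher calls for 4 of 5 stellate and 1 of 4 bile duct markers, and for 7711 of all 15135 genes tested. These genes held no knockout-list region, and their part in the RNA results below was not tested. In these bulk samples, fewer cells of a type and less RNA per cell cannot be told apart.

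Relative to the TMM scale, more genes with a region in both lists were called lower than higher in the knockout, and more genes whose knockout-list regions were all knockout only were called higher than lower. Regions at the start, the end or in the body were counted here, a grouping added after the data were seen. Of 481 tested genes with a region in both lists, edgeR called 39 higher (8.11%) and 128 lower (26.6%), with a median log2 fold change of -0.24. Over all genes tested, 12.6% were called higher and 13.0% lower, with a median of 0.01. Of 81 tested genes with knockout-only regions, 22 were called higher (27.2%) and 7 lower (8.64%), with a median of 0.22. With library totals alone the first group turned to 189 higher and 63 lower, the second had 54 higher and 2 lower, and all genes tested had 7711 higher and 617 lower. Without control replicate 1 the counts were 71 higher and 154 lower in the first group and 27 higher and 8 lower in the second. Higher calls in the first group numbered 24 without control replicate 2, 23 without control replicate 3, 19 without knockout replicate 1 and 24 without knockout replicate 2. Without control replicate 3 the second group had 11 higher calls, without knockout replicate 1 it had 13 higher and 4 lower, and without knockout replicate 2 it had 13 higher. Genes with control-list regions alone stood at 436 higher and 948 lower of 5002, or 8.72% and 18.95%, and at 2589 and 262 with library totals alone.

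**Figure D4:**
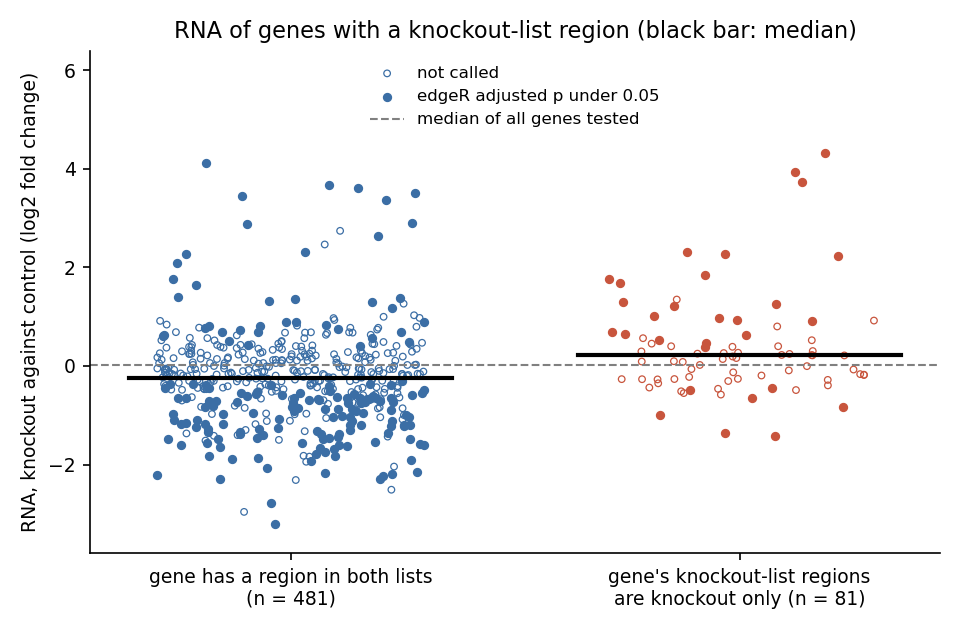
Log2 fold change of RNA, knockout against control (vertical axis), for each tested gene with a region in both lists (n = 481) or with knockout-only regions (n = 81); filled points passed edgeR's adjusted p of 0.05, black bars are medians and the dashed line is the median of all genes tested. The median is -0.24 in the first group and 0.22 in the second on the TMM scale, and library totals alone raise all values by a median of 0.59.

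At gene starts alone the groups were smaller. Of 215 tested genes with a start region in both lists, 22 were called higher (10.2%) and 46 lower (21.4%), with a median of -0.16. Over all genes tested the shares were 12.6% and 13.0%. Of 16 tested genes with a knockout-only start region, 4 were called higher (Gm10941, Hist2h3c2, Fdxr and Hist1h3g) and 1 lower (Flad1). Flad1 was not called without knockout replicate 1 or 2 (edgeR adjusted p up to 0.064). Higher calls at starts in both lists numbered 14 without control replicate 3, 11 without knockout replicate 1 and 13 without knockout replicate 2. Genes with a start region in the control list alone were called higher in 342 (9.07%) and lower in 674 (17.9%) of 3771. With library totals alone the counts of higher and lower calls were 96 and 16 at starts in both lists, 11 and 0 at knockout-only starts (0 lower also at an unadjusted p under 0.05, and 1 by DESeq2) and 1992 and 150 at control-only starts. Flad1 had -0.04 there (edgeR adjusted p = 0.81).

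The calls were also counted by coverage. Of the 40 tested genes in which the knockout list covered more bases than the control list, edgeR called 17 higher (42.5%) and 1 lower (Cnbp, a nucleic acid binding protein), with a median log2 fold change of 0.44. Of the 509 tested genes in which the control list covered more, 42 were called higher (8.25%) and 134 lower (26.3%), with a median of -0.23. Leaving out 1 RNA library at a time gave from 13 to 22 higher calls in the first of these sets, and without control replicate 1 it had 2 lower calls. On library totals alone the first set had 30 higher and 0 lower (0 at an unadjusted p under 0.05, and 1 by DESeq2), and the second turned to 207 higher and 65 lower.

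The calls were counted by the number of regions in a gene as well. Of 388 tested genes with 1 knockout-list region, 49 were called higher and 71 lower, beside 12.6% and 13.0% of all genes tested. Among the 12 genes with 10 or more regions, 9 were called lower, the median log2 fold change was -0.79, and 3 did not pass, Neat1 and Alas1 among them. With library totals alone the genes with 1 region had 190 higher and 22 lower calls, and 4 of the 12 genes were called lower. Apob, Ass1, Slc38a3, Slc38a4 and Slc7a2 were not called on that scale. The calls of Ass1, Slc38a3 and Slc7a2 were each lost without control replicate 2 or knockout replicate 1, with edgeR adjusted p of up to 0.094, 0.076 and 0.061 when 1 library was left out. Neat1 was called lower without knockout replicate 3 (edgeR adjusted p = 0.011). Cps1 had 3859, 2883 and 2744 CPM in control and 1270, 1536 and 1543 in knockout libraries. The groups did not overlap, and the change was -1.12 (SE 0.16, edgeR adjusted p = 0.0032).

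As a share of all RNA counts, genes with a region in both lists held 35.1, 31.7 and 32.0% in control and 23.6, 24.8 and 23.1% in knockout libraries. Alb, in this set, had 4507249 counts over the 3 control libraries and 1536357 over the 3 knockout libraries. The share without Alb was not computed. The 92 genes with knockout-only regions held 0.943 ± 0.061% of the counts in control and 1.47 ± 0.040% in knockout libraries (SD, n = 3). Genes with control-list regions alone held 41.5, 42.7 and 42.5% in control and 45.9, 45.6 and 45.5% in knockout libraries. The genotypes did not overlap in any of the 3 sets, and the share was lower in the knockout for genes with a region in both lists and higher for both other sets. Shares of a total depend on each other.

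Secreted liver proteins made up the largest group of members among the lists examined. Of 37 such genes, 20 held a knockout-list region, every one in both lists, and 19 of the 20 fell while Hpx (log2 fold change -0.35, edgeR adjusted p = 0.25) did not pass. Their median was -1.45, next to -1.39 over all 37, of which 28 fell, beside 13.0% of all genes tested called lower. Scaled by library totals alone, 15 of the 20 and 21 of the 37 were called lower, beside 617 of all 15135 genes tested. Alb had 74369, 74980 and 75825 CPM in control and 13928, 21126 and 13714 in knockout libraries. The lowest control library was above the highest knockout library by a wide margin, and Alb fell by 2.21 on the log2 scale (SE 0.18, edgeR adjusted p = 0.00044). Apoa2, an apolipoprotein of high-density lipoprotein with a region at its start, fell by 1.60. Fga, a fibrinogen chain, fell too (edgeR adjusted p = 0.020), with 19049 CPM in control replicate 1 and 6389 and 6086 in the others. Its call was lost without any 1 of the knockout libraries (edgeR adjusted p up to 0.068).

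Of the remaining hepatocyte markers, Cyp2e1, a cytochrome P450, had 8037, 9519 and 9940 CPM in control and 1452, 1628 and 905.5 in knockout libraries. The change in log2 was -2.79 (SE 0.23, edgeR adjusted p = 0.00044), and 3 knockout-list regions covered 12.7% of the gene, which 1 control region covered in full. Slc10a1, the bile acid uptake carrier of hepatocytes, held 3 knockout-list regions and fell by 2.30.

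Among 26 genes of the glucagon response and gluconeogenesis, 11 held a knockout-list region, all in both lists. Of those 11, Pck1, Tat, Cps1 and Slc7a2 fell, Per1, a clock gene, rose by 0.69, and 6 did not pass. The median of the 11 was -0.66. Over all 26, 1 was called higher and 7 lower, with a median of -0.16, beside 25.5% of all genes tested called in either direction. On library totals alone 4 of the 11 were called higher and 2 lower, and neither Tat (-0.36, edgeR adjusted p = 0.11) nor Slc7a2 (-0.08, 0.67) was called. The 26 had 12 higher and 3 lower calls on that scale, with a median of 0.44. Pck1 had 4268, 4695 and 4593 CPM in control and 1757, 2245 and 1510 in knockout libraries. No knockout library reached the controls, and Pck1 fell by 1.30 on the log2 scale (SE 0.16, edgeR adjusted p = 0.0017). Tat had 3413, 2862 and 2573 CPM in control and 1275, 1948 and 1349 in knockout libraries, again without overlap, with a change of -0.95 (SE 0.19, edgeR adjusted p = 0.011). Without knockout replicate 1, Tat had an adjusted p of 0.051 and Slc7a2 one of 0.061. Per1 lost its call without any 1 of 4 libraries, with an edgeR adjusted p of up to 0.146 without knockout replicate 1. G6pc had 426.4, 477.8 and 436.4 CPM in control and 302.7, 477.8 and 421.8 in knockout libraries. Its groups overlapped, with a change of -0.16 (SE 0.17, edgeR adjusted p = 0.53).

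**Figure D5:**
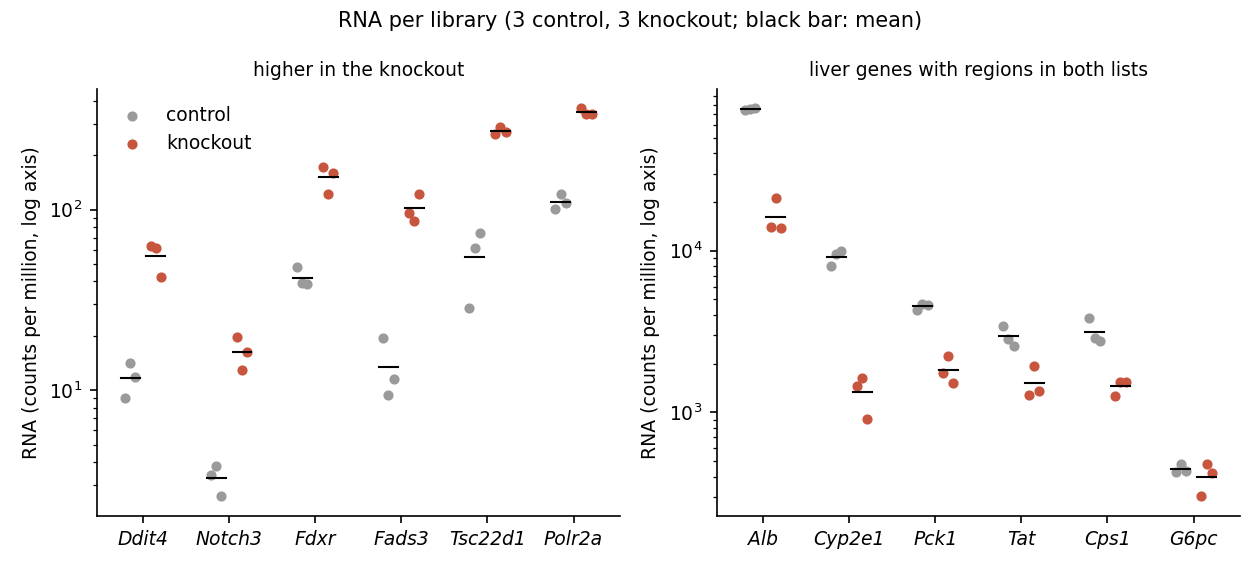
RNA per library in CPM (vertical log axis) for genes named in the text (horizontal axis), with control libraries in grey, knockout libraries in red and black bars for means (n = 3 each). The left panel shows Ddit4, Notch3, Fdxr, Fads3, Tsc22d1 and Polr2a, each higher in every knockout library, and the right panel shows Alb, Cyp2e1, Pck1, Tat and Cps1, each lower in every knockout library, with G6pc overlapping.

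Transcription factors and immediate early genes had calls in both directions. Of 28 hepatocyte transcription factors, 9 held a knockout-list region. Hnf4a, a master regulator of the hepatocyte program, fell by 1.35, Cebpa by 1.28, Rxra by 1.18 and Nr1h4 by 0.39, while Nfe2l2 rose by 0.40. Over all 28, 3 were called higher and 10 lower, beside 25.5% of all genes tested called in either direction. With library totals alone the 28 had 7 higher and 6 lower calls. Of the 9, library totals alone gave 2 called higher and 3 lower, and Nr1h4 turned to 0.19 (edgeR adjusted p = 0.21). Of 26 immediate early genes, 13 held a knockout-list region, the highest share of these lists apart from the secreted proteins and the hepatocyte markers. Of the 13, Zfp36l1, which destabilises messenger RNAs, fell by 1.83 and Cebpb by 0.99, Sgk1 rose, and 10 did not pass. Those 3 of 13 stand beside 25.5% of all genes tested called in either direction. Control replicate 1, the library that stood apart, was far above the other controls in several of these genes. Btg2 had 736.8 CPM there and 13.9 and 12.5 in the other controls, against 31.3 to 60.2 in knockout libraries, and Junb had 490.4 there and 85.4 and 75.3 in the others, against 60.8 to 94.8. The summed level of all 26 genes ran from 1103 to 5816 CPM in control and from 902.8 to 1199 in knockout libraries. Cebpb was not called with library totals alone (-0.39, edgeR adjusted p = 0.17). Several of these calls rested on single libraries. Nr1h4 and Nfe2l2 were called with control replicate 1 left out and lost the call without any other 1 library, with edgeR adjusted p of up to 0.130 and 0.080. Cebpb lost it without control replicate 2 or knockout replicate 1 or 2 (up to 0.075), and Sgk1 without control replicate 3 or any 1 of the knockout libraries (up to 0.084).

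Most histone genes with knockout-list regions that passed the test were higher in the knockout. Of the 19 genes of a fixed histone list that were in the table, 8 held a knockout-list region, 7 of them at the start. Hist1h1e, Hist2h4 and Hist1h1c rose, H2afx fell by 1.04, and the other 4 did not pass. Over the whole list 9 of 17 tested genes were called higher and 1 lower, with a median of 1.30. Of all genes tested, 12.6% were called higher and 13.0% lower. Another 7 histone genes outside the list held a knockout-list region, picked by symbol after values were seen. Of these 6 were tested and all rose: Hist1h3g by 4.33, Hist1h2be by 3.74, Hist1h1d by 3.51, Hist1h4d by 3.44, Hist1h4c by 2.89 and Hist2h3c2 by 2.27. These rises started from few counts. Over the 3 control libraries together Hist1h2be had 70, Hist1h1d 32, Hist1h4d 33, Hist1h4c 29 and Hist2h3c2 77 counts. Over the 3 knockout libraries they had 1470, 581, 565, 340 and 585. Hist2h4 of the list had 33 and 256. Scaled by library totals alone, 6 of the 8 list members were called higher, H2afx was not called (-0.44, edgeR adjusted p = 0.11), and the same 6 genes outside the list were called higher. These stand beside 7711 higher calls over all 15135 genes tested on that scale. Hist1h1e, a linker histone, had 0.682, 0.715 and 1.08 CPM in control and 8.04, 8.93 and 8.54 in knockout libraries. All knockout libraries were higher, by 3.37 on the log2 scale (SE 0.25, edgeR adjusted p = 0.00034). The call of Hist1h1c (edgeR adjusted p = 0.047) was lost without any 1 of the 6 RNA libraries (up to 0.135). Hist2h4 lost its call without any 1 of 4 libraries (up to 0.113), and H2afx without knockout replicate 2 (edgeR adjusted p = 0.056). Histone genes are near-identical copies of each other, so reads may have been split among them, and the annotated span of Hist1h2be overlaps Hist1h1e.

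Polr2a, which encodes the largest subunit of RNA polymerase II, was the only one of 44 RNA polymerase subunit genes with a knockout-list region, at chr11:69758527-69758743 with its summit 5 bases downstream of the start. It had 100.5, 122.8 and 108.8 CPM in control and 363.8, 340.7 and 340.1 in knockout libraries. The groups were far apart, with a log2 fold change of 1.65 (SE 0.12, edgeR adjusted p = 0.00034). Of 31 Mediator genes in the table, 0 held a knockout-list region and 8 held a control-list region. Malat1, whose regions covered more of the gene in the knockout list, rose by 1.38, and Neat1 was not called at -0.84 (edgeR adjusted p = 0.085, and 0.011 without knockout replicate 3). In a fixed list of 40 ribosomal protein and translation genes, only Eef1a1 held a knockout-list region. It fell by 0.66, a call lost with library totals alone (-0.08, edgeR adjusted p = 0.62). Of the 40, 25 were called lower, with a median of -0.43, beside 13.0% of all genes tested. With library totals alone 12 of the 40 were called higher and none lower. Genes of these families outside the list were not counted here.

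Among named genes that the knockout list covered more, Fads3, Tsc22d1, Malat1, Ddit4 and Notch3 rose, Cnbp fell on the TMM scale and Bhmt did not pass. Fads3 had 19.5, 9.44 and 11.6 CPM in control and 95.9, 87.1 and 122.5 in knockout libraries. Every knockout library was above every control, by 2.91 on the log2 scale (SE 0.29, edgeR adjusted p = 0.00097). Its neighbour Fads2, with 5 regions of which 3 were knockout only, rose by 0.50, a call lost without any 1 of 4 libraries (edgeR adjusted p up to 0.135). Tsc22d1, a transcription factor of the TSC22 family with 3 regions near its end, had 28.6, 61.6 and 74.2 CPM in control and 261.0, 287.8 and 269.4 in knockout libraries. Again there was no overlap, with a change of 2.31 (SE 0.33, edgeR adjusted p = 0.0040). Bhmt was an exception: it had 5560, 1770 and 1664 CPM in control and 1727, 1916 and 1658 in knockout libraries. The groups overlapped, the change was -0.76 (edgeR adjusted p = 0.29), and without control replicate 1 it was 0.04.

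Ddit4 led the genes whose regions were all knockout only and that code for proteins other than histones, together with Notch3. It had 9.06, 14.2 and 11.8 CPM in control and 62.8, 61.0 and 42.1 in knockout libraries. The genotypes were clearly apart, with a change of 2.24 (SE 0.22, edgeR adjusted p = 0.00067). For the same gene the log2 fold change in the authors' deposited table is 2.23. Notch3 had 3.41, 3.81 and 2.58 CPM in control and 19.8, 12.9 and 16.4 in knockout libraries, a change of 2.32 (SE 0.23, edgeR adjusted p = 0.00071). Fdxr, the ferredoxin reductase that feeds electrons to mitochondrial cytochromes P450, had a region with its summit 151 bases upstream of the start. Its level was 47.8, 39.0 and 38.8 CPM in control and 171.5, 122.0 and 158.9 in knockout libraries, a rise of 1.85 (SE 0.16, edgeR adjusted p = 0.00051).

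Other risers of this class were Zfp750 (1.77), Hfe2, which encodes the iron regulator hemojuvelin (1.69), Sgk1, a kinase induced by stress and hormones (1.21), and the xanthine dehydrogenase gene Xdh (0.69). Sgk1 and Xdh lost their calls without control replicate 3 or any 1 of the knockout libraries, with edgeR adjusted p of up to 0.084 and 0.121. The 7 that fell were Mocos (-1.42), Abcb4, the phospholipid transporter of the bile canaliculus (-1.36), Mocs1, which starts molybdenum cofactor synthesis (-0.998), the complement-related Cfhr2 (-0.82), Flad1, the FAD synthase (-0.64), Fmo5 (-0.49) and the nuclear receptor gene Rora (-0.44). Flad1, Fmo5 and Rora were not called without knockout replicate 1, and leaving out 1 library gave edgeR adjusted p of up to 0.064, 0.058 and 0.092 for them. Mocos and Abcb4 were still called lower with library totals alone, while Mocs1 (-0.41, edgeR adjusted p = 0.087), Cfhr2 (-0.24, 0.15) and Flad1 (-0.04, 0.81) were not called, and Fmo5 and Rora turned to 0.09 and 0.14 (0.47 and 0.32). Mocos had 93.0, 87.0 and 75.3 CPM in control and 27.6, 32.6 and 35.5 in knockout libraries, so its region of highest fold in the class lay in a gene with less RNA in every knockout library.

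A last group of members stood apart in their own values. In 21 knockout-list regions the fold was under 4, from 2.13 to 3.95, while the -log10 q-value was 10 or more, from 10.2 to 79.6, and 11 of these were knockout only. Of the 21, 11 lay on chromosome 9 between 3000039 and 3035261, over gene models without names such as Gm10722 and Gm26870.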

How the data were processed

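The RNA table holds whole-number counts per gene as deposited by the authors, and the submitters' processing notes name HISAT2 2.1.0 and HTSeq 0.6.0 as well as Bowtie2 2.2.3. Its log2 fold changes, fold ratios and p-values are the authors' deposited comparison. Each ChIP list is 1 library's peaks on mm10, with a deposited score, fold (ratio) and -log10 p- and q-value per row. The submitters' processing notes name MACS2, BWA, deepTools, SAMtools and DESeq2 for ChIP, with no version. The sources used here do not give strand, read filters or the control used for calling, so overlapping and antisense genes cannot be told apart in RNA.

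Genes passing filterByExpr (minimum count 10, total 15) were scaled by TMM and fitted with edgeR 4.0.16 in R 4.3.3 (robust quasi-likelihood, two-sided, genotype only, Benjamini-Hochberg), after the fit was tested on simulated data. CPM uses TMM-scaled library sizes. DESeq2 1.42.0, other scalings and filters, a replicate block, other windows and overlaps and leaving out each RNA library were alternatives. RefSeq promoters replaced the planned 300 bases round the summits. By symbol, 182 of the 267 start genes had a promoter. Named regions were the 8 of highest fold per class and at starts. Named genes were those starts' genes, the 8 largest rises and falls at starts with at least 5 CPM in the higher genotype and no overlap, Med19, G6pc, Pck1, Fbp1, Pcx, Slc37a4, Ppargc1a and members of the lists. Other genes, the groups by regions anywhere in a gene and the coverage comparison were added after seeing values. The members and lists were chosen with earlier results of these data known. The 6 mitochondrial regions were left out, and some genes are not reported here. Analyses used Python 3.11.15 with pandas 2.3.3, numpy 2.4.6 and scipy 1.17.1.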

Additional observations from a re-analysis of the deposited data

Results flagged for a closer look

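The knockout list also holds 6 regions on the mitochondrial chromosome, which no comparison of the nuclear regions uses, and the control list holds 0 there. Their folds ran from 1.40 to 1.88 and their -log10 q-values from 1.92 to 10.7. They were singled out because they appear in the knockout list outside the nuclear regions and not in the control list. Each list is 1 library, and the difference was not tested.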

How the results depend on the processing

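With 1 ChIP library per genotype, depth and replicate error of the regions are unknown here. The share of knockout-list regions in both lists, 86.1%, was 81.5% with an overlap of at least 50% of the region, 41.8% with summits within 250 bases, 93.5% for knockout regions of -log10 q of 5 or more, 75.8% against control regions of that q and 52.7% against the control regions of highest fold, cut to the length of the knockout list. The share at starts, 21.7%, was 17.3% within 500 bases, 28.2% within 2 kb and 18.4% with protein-coding genes only.

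Scaling by library size alone shifted log2 fold changes up by a median of 0.59. It gave 7711 higher and 617 lower calls over all genes, 96 and 16 at starts in both lists, 11 and 0 at knockout-only starts (0 lower at an unadjusted p under 0.05 and 1 by DESeq2) and 1992 and 150 at control-only starts. For regions anywhere in the gene it gave 189 and 63 in both lists, 54 and 2 for knockout only, 2589 and 262 for control only, and 30 and 0 for genes with more knockout coverage (0 unadjusted, 1 by DESeq2). Taking every gene with a knockout-only region gave 12 lower calls, and taking those without any control region gave 7 higher and 0 lower (1 unadjusted, 0 by DESeq2).

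Leaving out 1 RNA library at a time gave these ranges of higher and lower calls: all genes 1119 to 2407 and 1104 to 2514; starts in both lists 11 to 32 and 33 to 55; knockout-only starts 4 to 5 and 0 to 2; control-only starts 168 to 486 and 365 to 850; both lists anywhere 19 to 71 and 100 to 154; knockout only anywhere 11 to 27 and 4 to 8; control only anywhere 228 to 620 and 543 to 1222; more knockout coverage 13 to 22 and 1 to 2. The cause of these moves was not tested.

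Same-numbered libraries deviated together with correlations of 0.11, 0.052 and 0.094, and libraries of different numbers with -0.089 to 0.02. Each library correlated best with its own number, but the values are small and do not settle whether the numbers pair the samples. With the replicate block, 1713 genes were called higher and 1755 lower, 20 and 6 for knockout only anywhere and 36 and 120 for both lists, and Gadd45a turned to 0.55.

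Signs also turned, all in log2, with library size alone for Actb (0.21), Rce1 (0.52), Cnbp (0.066), G6pc (0.43), Fbp1 (0.32), Pcx (0.21), Jund (0.14), Hspa8 (0.29), Fmo5 (0.095) and Rora (0.14). Leaving out 1 library gave from -0.61 to 0.079 for Actb, -0.22 to 0.11 for Rce1, -0.68 to 0.021 for Jund, -1.85 to 2.12 for Gadd45a and -1.06 to 0.038 for Bhmt, each turning without control replicate 1. It gave from -0.61 to 0.014 for Hspa8, which turned without knockout replicate 3, as Rce1 did (0.012).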
